A study of Mus musculus with 10 samples.

Results

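Type I interferon-stimulated genes were examined in RNA sequenced from the bone marrow of mice that drank water with or without α-ketoglutarate (α-KG), a metabolite of the tricarboxylic acid cycle. The 37 genes were listed by symbol, with earlier results of these data known, and all 37 were found among the 55367 genes of the deposited count table. One group of 5 libraries came from mice given regular water and the other group of 5 from mice given 1% α-KG in the drinking water. The labels call the cells BMMC and the tissue bone marrow. They state no batch, strain, genotype, sex, age or duration of treatment, although the series title concerns myeloproliferative neoplasms. Replicate numbers follow accession order and pair nothing. No label ties a library to its own animal, so p-values of the group comparison only weigh the difference against the spread of these libraries. That spread may be technical.

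Type I interferons, the α and β families, bind the Ifnar1 and Ifnar2 receptor. The kinases Jak1 and Tyk2 then act on Stat2, which joins Irf9 in the factor ISGF3. ISGF3 binds interferon-stimulated response elements in the promoters of antiviral genes, and many of its targets encode sensors, effectors and regulators of the same pathway. In marrow, interferon is known to act on stem cells and on the output of myeloid and red cells.

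The response element holds pairs of GAAA blocks, and stretches of 6 member promoters are shown because they carry that motif in genes that behaved differently across the libraries. The motif searched was GAAANNGAAA, or TTTCNNTTTC on the other strand, counting overlapping matches, in windows of 300 bases from 250 before to 50 after the start site. Capitals mark the matches. The sequences are from RefSeq on GRCm38.p6, run 5′ to 3′ on the gene's strand and lie upstream of the start.
Isg15, chr4:156200855-156200904, minus strand: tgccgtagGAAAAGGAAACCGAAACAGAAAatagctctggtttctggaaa
Ifit1, chr19:34640784-34640833, plus strand: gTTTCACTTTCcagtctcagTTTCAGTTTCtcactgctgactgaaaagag
Rsad2, chr12:26456543-26456592, minus strand: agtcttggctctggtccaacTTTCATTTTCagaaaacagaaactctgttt
Oas3, chr5:120777705-120777754, minus strand: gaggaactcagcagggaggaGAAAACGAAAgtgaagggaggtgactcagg
Ifit3, chr19:34583387-34583436, plus strand: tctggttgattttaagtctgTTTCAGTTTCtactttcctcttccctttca
Trim30a, chr7:104465200-104465249, minus strand: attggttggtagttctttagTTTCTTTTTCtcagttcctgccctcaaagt

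A promoter window was matched for 26 of the 37 members, and 12 of those 26 (46.15%) held the motif. Of all 27025 genes with a window, 1079 (3.99%) held it. The other 6 members with a match were Stat2, Oas1a, Bst2, Ddx58, Eif2ak2 and Ifih1. A match describes these letters and does not show that a factor was bound.

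Library totals ran from 14291364 to 22490118 counts, and the scaling factors (TMM, the trimmed mean of M-values) ran from 0.737 to 1.44. Composition moved with the groups. The small cytoplasmic Rn7s RNAs took 7.56 to 24.2% of the counts in water and 24.0 to 31.0% in α-KG, and protein-coding genes took 42.2 to 72.2% and 37.9 to 50.1%. The part of this difference in the members' values was not tested. Marker genes of monocytes were higher in the α-KG libraries. Their summed level ran from 409 to 548 CPM (counts per 1000000 counts of the library, after TMM scaling) in water and from 567 to 1164 CPM in α-KG, and 7 of the 9 rose (edgeR, adjusted p under 0.05 over all genes tested). Macrophage markers summed to 42.3 to 86.2 CPM in water and 84.1 to 136.8 CPM in α-KG, and 5 of the 10 rose. Markers of plasmacytoid dendritic cells, which are known as strong producers of type I interferon, summed to 55.2 to 75.8 CPM in water and 52.1 to 90.4 CPM in α-KG. The largest part of that sum was Tcf4, with means of 31.1 and 40.0 CPM. Of the 9 markers 0 passed the edgeR test. Their log2 fold changes had a median of -0.17, with 3 above 0 and 6 below. The 2 at an unadjusted p under 0.05, Tcf4 and Lair1, were both higher in α-KG, while Siglech had -0.31. Red cell markers stood apart in 1 library. Their mean log2(CPM + 1) was 8.11 in α-KG 1, while the other 9 libraries lay between 9.51 and 10.6, although the summed level, which is mostly globin, ran from 26080 to 65930 CPM in water and from 35100 to 118800 CPM in α-KG. No marker of these lists was at 0 in every library. In bulk RNA, fewer cells of a type and less RNA per cell cannot be told apart.

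Trim30a was the 1 member of the 37 that rose with α-KG (edgeR quasi-likelihood test, Benjamini-Hochberg adjusted p under 0.05), and 0 fell. Of all 15126 genes tested, 2.39% rose and 0.344% fell by the same rule, so a count of 1 in 37 is near the background. The members' log2 fold changes ran from -0.36 for Irf9 to 1.21 for Ifi27l2a. Their median was 0.13, beside 0.02 for all genes tested, with 24 above 0 and 13 below. At an unadjusted p under 0.05 stood 10 members (27.0%), beside 4205 of all 15126 genes (27.8%). All 10 members were higher in α-KG, while of the 4205 genes 2471 were higher and the rest lower. The groups did not overlap for 1 member, Oas2, which was higher in α-KG, beside 3.64% of all genes higher and 2.01% lower without overlap.

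The scale and the choice of libraries changed the picture of the members as a group. With library totals alone in place of TMM, the median of all genes moved from 0.02 to -0.22 and that of the members from 0.13 to -0.17, and 13 members in place of 24 lay above 0. Relative to the median of all genes, 24 members lay above it with TMM and 23 with totals alone. DESeq2 called 7 members higher, Ddx58, Zbp1, Ifit3, Oas2, Mx1, Trim30a and Ifi27l2a, beside 6.07% of all genes. Without α-KG 2, edgeR called those 7 and Tor3a, beside 10.5% of all genes higher. The call of Trim30a was kept without water 3 or α-KG 2 and was lost without any 1 of the other 8 libraries. Without water 1, water 2, water 4 or α-KG 4, edgeR called 0 genes of any kind, with 3232 to 3672 genes at an unadjusted p under 0.05.

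**Figure D1:**
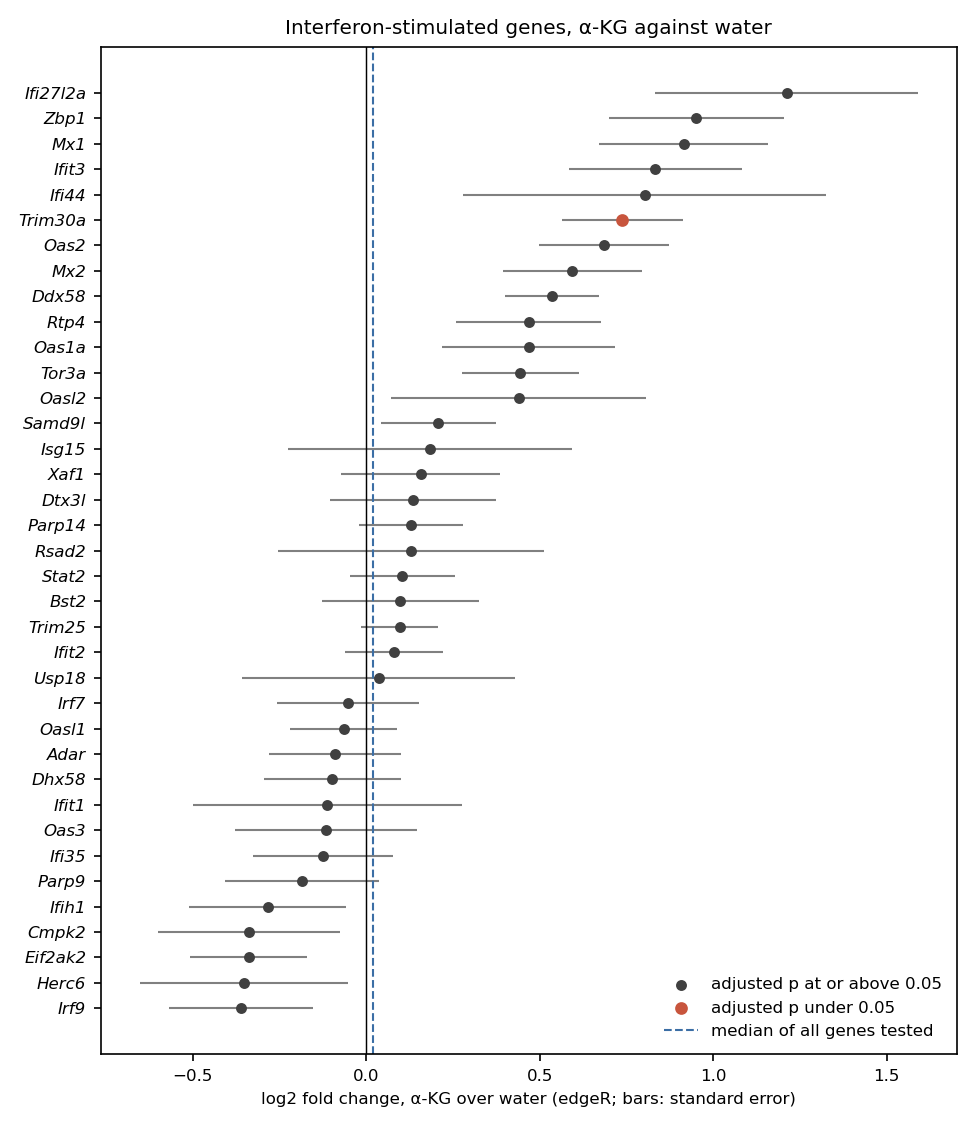
The log2 fold change of each of the 37 members, α-KG over water, from edgeR, with bars of 1 standard error on each side; the dashed line is the median of all genes tested. Values run from -0.36 (Irf9) to 1.21 (Ifi27l2a), and Trim30a, the coloured point, is the 1 member with an adjusted p under 0.05.

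The subunits of ISGF3 and Irf7, which amplifies interferon production, showed no change past the test. Stat2 had a log2 fold change of 0.10 ± 0.15 (SE) and Irf7 one of -0.05 ± 0.21. Irf9 was at 68.4, 61.7, 52.2, 66.0 and 61.6 CPM in water 1 to 5, and at 27.1, 56.9, 36.1, 59.2 and 62.3 CPM in α-KG 1 to 5. Irf9 in α-KG 1 and α-KG 3 lay below every water library, while the other 3 α-KG libraries lay within the water range. Its log2 fold change was -0.36 ± 0.21 (edgeR adjusted p = 0.267). Exons of Irf9 (chr14:55603571-55610030 on GRCm38) overlap those of Rnf31 on the same strand, so counts of the pair could be shared.

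Among the sensors of nucleic acids, Ddx58 and Zbp1 had the higher values in α-KG and Ifih1 did not. Ddx58, which encodes the RNA sensor RIG-I, was at 15.7, 15.3, 13.9, 13.8 and 11.1 CPM in water and at 22.6, 15.6, 19.8, 21.2 and 22.2 CPM in α-KG. All α-KG libraries but α-KG 2 lay above every water library. The log2 fold change of Ddx58 was 0.54 ± 0.13, with an edgeR adjusted p of 0.0554. Zbp1, a sensor of Z-form nucleic acid that triggers cell death, had 0.95 ± 0.25 (edgeR adjusted p = 0.0597). Ifih1, the sensor of long double-stranded RNA, had -0.28 ± 0.23, and Dhx58, which modulates those sensors, had -0.10 ± 0.20.

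The 3 IFIT genes encode proteins that bind foreign RNA, and they lie within one cluster on chromosome 19. Ifit3 was at 3.96, 2.43, 5.44, 3.42 and 1.86 CPM in water and at 5.99, 5.33, 5.31, 7.13 and 7.34 CPM in α-KG. The overlap came from water 3, which lay above α-KG 2 and α-KG 3. The log2 fold change of Ifit3 was 0.83 ± 0.25 (edgeR adjusted p = 0.0768). Its near copy Ifit3b, with which reads could be shared, had 0.84 ± 0.26 (edgeR adjusted p = 0.0816). Ifit1 had -0.11 ± 0.39 and Ifit2 had 0.08 ± 0.14. Ifit1 varied 2.73-fold between the lowest and highest water library and 5.92-fold between those of α-KG.

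OAS enzymes make oligoadenylates that activate RNase L, and their genes Oas1a, Oas2 and Oas3 lie in one cluster on chromosome 5. Oas2 was at 18.9, 18.02, 21.8, 19.3 and 11.4 CPM in water and at 25.0, 24.1, 23.5, 34.4 and 37.6 CPM in α-KG. Every α-KG library exceeded every water library, by as little as the gap between water 3 and α-KG 3. The log2 fold change of Oas2 was 0.69 ± 0.19, with an edgeR adjusted p of 0.0641. The nearby Oas3 was at 142.1, 128.7, 93.3, 157.8 and 125.8 CPM in water and at 53.9, 125.1, 113.3, 123.6 and 181.9 CPM in α-KG. Oas3 was lowest in α-KG 1 and highest in α-KG 5, with the water libraries between them. Its log2 fold change was -0.12 ± 0.26, 0.06 without α-KG 1 and -0.32 without α-KG 5. Oas1a had 0.47 ± 0.25, and the OAS-like genes Oasl1 and Oasl2 had -0.06 ± 0.15 and 0.44 ± 0.37. Without α-KG 5 the value of Oas1a was 0.25 and that of Oasl2 was 0.0028. Oas1a has near-identical copies such as Oas1g (0.63 ± 0.43), so its counts are uncertain.

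Rsad2, which encodes the antiviral enzyme viperin, had the highest level of the members per length, 185.3 CPM per kb of exon over the 10 libraries. Rsad2 was at 797.5, 1014, 480.1, 972.1 and 575.4 CPM in water and at 239.5, 830.1, 1135, 786.3 and 1204 CPM in α-KG. The lowest value was in α-KG 1, and α-KG 3 and α-KG 5 exceeded every water library. Its log2 fold change was 0.13 ± 0.38 (approximate 95% interval -0.62 to 0.88, edgeR adjusted p = 0.846). Without α-KG 1 the value was 0.36, and without α-KG 5 it was -0.04. Rsad2 took 25.6 to 55.1% of the members' summed CPM in a library.

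Cmpk2, a nucleotide kinase gene that lies next to Rsad2 on chromosome 12, had -0.34 ± 0.26. The GTPase gene Mx1 was at 2.57, 3.67, 4.58, 3.56 and 5.005 CPM in water and at 8.17, 4.69, 5.37, 10.7 and 7.63 CPM in α-KG. The 4 highest values were all in α-KG, and α-KG 2 lay below water 5. The log2 fold change of Mx1 was 0.92 ± 0.24 (edgeR adjusted p = 0.0605), and its relative Mx2 had 0.59 ± 0.20 (edgeR adjusted p = 0.0975). Bst2, which tethers budding virus, had 0.10 ± 0.23. Samd9l, an antiviral restraint on translation and growth, had 0.21 ± 0.17. Eif2ak2, the kinase PKR, had -0.34 ± 0.17, and the RNA-editing enzyme gene Adar had -0.09 ± 0.19.

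Isg15, a ubiquitin-like protein that is conjugated to other proteins, had the second highest level per length, 166.3 CPM per kb of exon. It was at 134.4, 149.5, 71.5, 150.5 and 82.6 CPM in water and at 33.4, 132.3, 135.8, 117.0 and 249.9 CPM in α-KG. Isg15 thus spanned 2.10-fold within water and 7.48-fold within α-KG, whose libraries included the lowest and the highest value of the 10. Its log2 fold change was 0.18 ± 0.41 (approximate 95% interval -0.62 to 0.98, edgeR adjusted p = 0.790). It was 0.42 without α-KG 1 and -0.17 without α-KG 5. Usp18, which removes Isg15 and dampens the receptor, had 0.04 ± 0.39. Herc6, the main mouse ligase of Isg15, had -0.35 ± 0.30.

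Trim30a, a mouse TRIM protein known to restrain signalling from Toll-like receptors, was at 17.1, 17.6, 19.4, 18.8 and 12.1 CPM in water and at 29.0, 18.3, 30.9, 34.1 and 30.0 CPM in α-KG. The α-KG libraries other than α-KG 2 lay above every water library, and α-KG 2 lay among them. The gene (chr7:104409025-104465193 on GRCm38) rose by 0.74 ± 0.17 on the log2 scale (edgeR adjusted p = 0.0450). Over 22 other settings the log2 fold change of Trim30a ran from -0.06 to 0.86, and 8 of them kept the call. The lowest was the fit with the monocyte marker mean as a covariate, in which 0 of all genes passed and 151 had an unadjusted p under 0.05. Trim30a lies near similar TRIM genes such as Trim30d, so the split of reads between them is uncertain.

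Trim25, the ubiquitin ligase that acts on RIG-I, spanned 1.15-fold within water and 1.26-fold within α-KG, the narrowest α-KG range of the members, and had a log2 fold change of 0.10 ± 0.11. Dtx3l and Parp9 act as one complex in ubiquitin and ADP-ribose transfer, and their exons overlap on opposite strands. They had 0.14 ± 0.24 and -0.19 ± 0.22. The ADP-ribosyltransferase gene Parp14 had 0.13 ± 0.15. Exons of Irf7, Dhx58, Oasl1, Eif2ak2, Adar, Usp18 and Ifi35 also overlap a gene on the opposite strand, and no source used here says whether the counting used strand.

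Ifi27l2a, a small interferon-induced membrane protein gene, had the largest difference of the members. It was at 2.60, 1.94, 3.20, 3.14 and 4.004 CPM in water and at 5.68, 3.01, 3.42, 11.4 and 11.3 CPM in α-KG. The values of α-KG 4 and α-KG 5 were the highest, α-KG 1 also exceeded every water library, and α-KG 2 and α-KG 3 lay within the water range. Its log2 fold change was 1.21 ± 0.38 (edgeR adjusted p = 0.0845). Rtp4 had 0.47 ± 0.21, the torsin gene Tor3a had 0.44 ± 0.17, the apoptosis-linked Xaf1 had 0.16 ± 0.23 and Ifi35 had -0.12 ± 0.20. Ifi44, the scarcest member per length, had 5 to 28 counts in a library and a log2 fold change of 0.80 ± 0.52. Without α-KG 5 the value of Ifi44 was 0.39 and that of Rtp4 was 0.27.

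**Figure D2:**
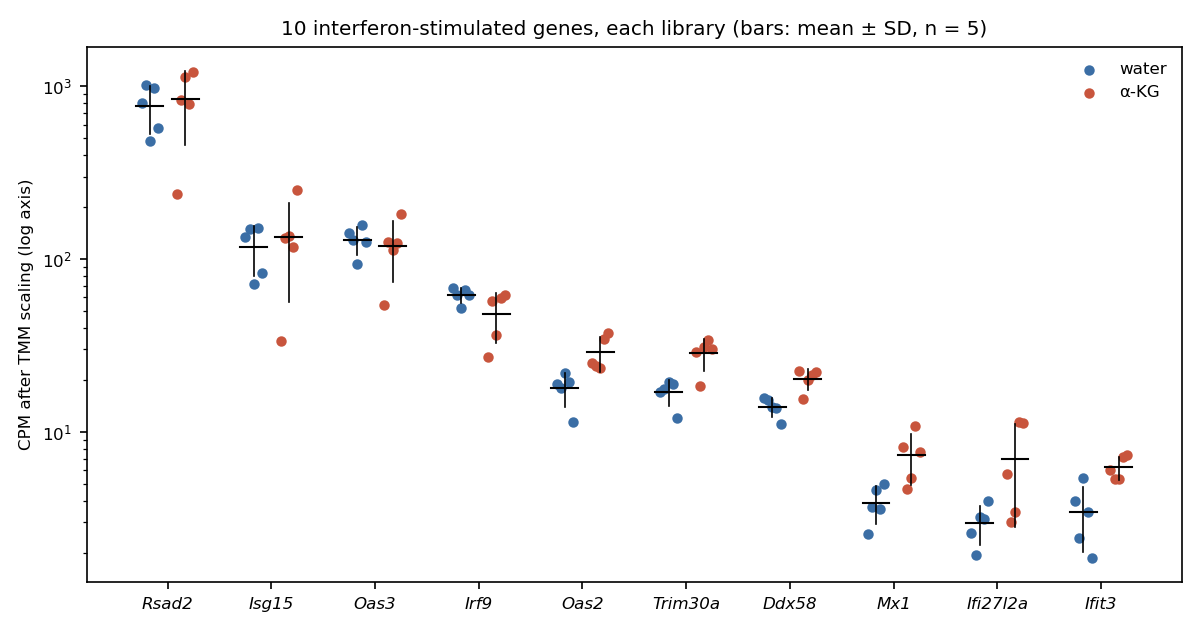
CPM on a log axis for the 10 members given library by library, with 1 point per library and bars for the mean ± SD of 5. Trim30a, Ddx58, Mx1 and Ifi27l2a overlap between the groups through the lowest α-KG values, Oas2 does not overlap, and the lowest point of Rsad2, Isg15, Oas3 and Irf9 is in each case α-KG 1.

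Much of the spread of the members lay between libraries of the α-KG group. α-KG 5 was the highest of the 10 libraries for 26 of the 37 members (70.3%), while it was the highest for 9.63% of all genes tested. α-KG 1 was the lowest for 15 members (40.5%), beside 24.6% of all genes. In water, water 4 was the highest of its group for 17 members, and that share over all genes was not computed. The summed level of the members ran from 1381 to 2196 CPM in water, and in α-KG from 934 CPM in α-KG 1 to 2832 CPM in α-KG 5. Without Rsad2 the sums of those 2 libraries were 695 and 1628 CPM. The median log2 fold change of the members was 0.23 without α-KG 1, with 29 above 0, and -0.04 without α-KG 5, with 17 above 0.

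**Figure D3:**
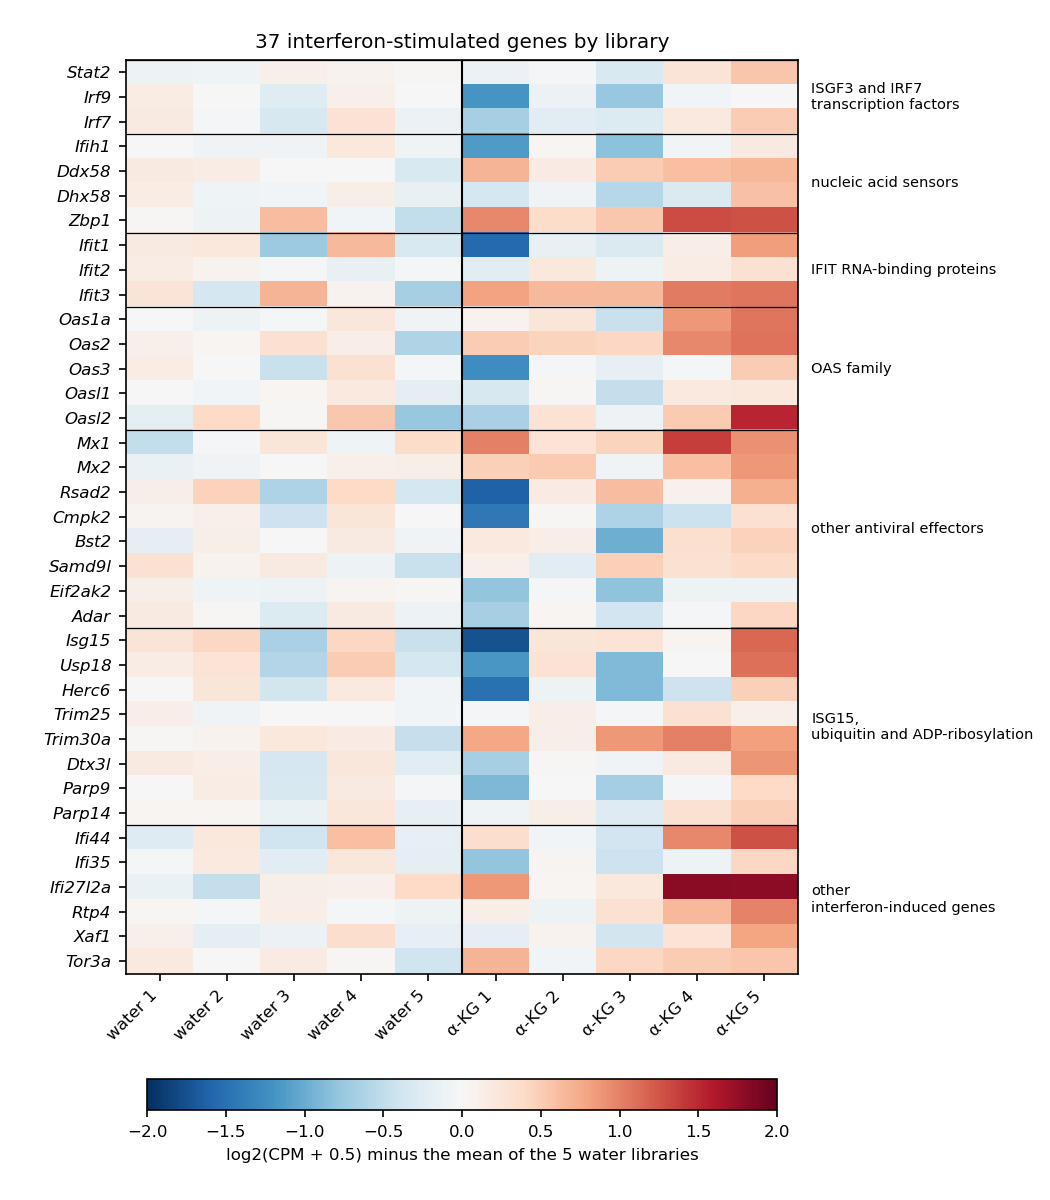
Each member (rows, by role) in each library (columns), as log2(CPM + 0.5) minus the mean of the 5 water libraries; red is above that mean and blue below. α-KG 5 is the highest library for 26 of 37 members, and the α-KG 1 column holds both strongly blue genes (Isg15, Rsad2, Herc6) and red ones (Mx1, Zbp1, Trim30a).

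The α-KG 1 library was not low for every member, and the members differed in which marker list they followed across the 10 libraries. Pearson's r with the mean log2(CPM + 1) of the red cell and of the monocyte markers was computed for each member, 74 relations in all, with permutation p-values from 100000 resamples adjusted over the 74. With the red cell markers r exceeded 0.5 for 18 members, with the monocyte markers for 11, with both for 0 and with neither for 8. After adjustment 13 and 9 relations had a p under 0.05. The 2 marker means had r = -0.439 with each other, which leaves little room for r above 0.5 with both. Only positive r was counted. With the monocyte markers Eif2ak2 had r = -0.612 and Irf9 had -0.507, and with the red cell markers Tor3a had -0.545 and Mx1 had -0.529. The permutations ran over all 10 libraries without regard to group. A difference between the groups alone can thus give a small p, above all with the monocyte markers. No p-value was computed for deviations from the group means. The limit of 0.5 was chosen after the values were seen, so these sets are a description. All values of a library share its depth and scaling.

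The 18 members that followed the red cell markers were Adar, Cmpk2, Dhx58, Dtx3l, Eif2ak2, Herc6, Ifi35, Ifih1, Ifit1, Ifit2, Irf7, Irf9, Isg15, Oas3, Oasl2, Parp9, Rsad2 and Usp18. Their median log2 fold change was -0.11, with 6 of 18 above 0, and α-KG 1 was the lowest α-KG library for 16 of them. The red cell mean was itself lowest in α-KG 1, so low values there follow in part from how the 18 were chosen. Cmpk2 had r = 0.965 (permutation p = 0.00027, adjusted 0.00789) and Spearman's rho = 0.903 (permutation p = 0.0008, adjusted 0.0186), and r = 0.929 without the 2 farthest libraries, water 3 and α-KG 1. Oas3 had r = 0.946 (permutation p = 0.00026, adjusted 0.00789) and rho = 0.891 (permutation p = 0.0012, adjusted 0.0186), and r = 0.657 without those libraries. Rsad2 had r = 0.862 (permutation p = 0.00751, adjusted 0.0265) and rho = 0.721 (permutation p = 0.0235, adjusted 0.0915), but r = 0.174 without them, so its relation rests on those 2 libraries. Isg15 likewise went from r = 0.881 (permutation p = 0.00319, adjusted 0.0163, with rho = 0.855, permutation p = 0.00291, adjusted 0.0215) to 0.431. Of the 18, 12 kept r above 0.5 without the pair of libraries, and 18 kept it for deviations from the group means. Those deviations still include α-KG 1. The red cell marker mean itself followed the mean of dividing-cell genes (r = 0.817), of which 0 of 8 had a log2 fold change above 0.

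The 11 that followed the monocyte markers were Ddx58, Ifi27l2a, Ifit3, Mx1, Mx2, Oas2, Rtp4, Samd9l, Tor3a, Trim30a and Zbp1, and they included the 7 that DESeq2 called. Their median log2 fold change was 0.69, all 11 lay above 0 with TMM (Samd9l at -0.10 with library totals alone), and α-KG 1 was the lowest α-KG library for 0 of them. The monocyte mean ran from 4.93 to 5.43 in water and from 5.45 to 6.39 in α-KG, with α-KG 2 nearest to water. Thus r over all libraries largely follows the groups, and log2 fold changes above 0 follow in part from how the 11 were chosen. Trim30a had r = 0.927 (permutation p = 0.00046, adjusted 0.00789) and rho = 0.867 (permutation p = 0.00199, adjusted 0.0208). Its r was 0.878 without α-KG 4 and α-KG 5, the farthest libraries, and 0.788 for deviations from the group means. Mx1 had r = 0.875 (permutation p = 0.00058, adjusted 0.00789) and rho = 0.891 (permutation p = 0.00126, adjusted 0.0186), with 0.774 and 0.677 by those checks. Oas2 had r = 0.809 (permutation p = 0.00144, adjusted 0.0107) and rho = 0.855 (permutation p = 0.00281, adjusted 0.0215), with 0.636 and 0.468. For deviations from the group means 8 of the 11 kept r above 0.5, but not Oas2, Ifit3 (0.418) or Mx2 (0.004). Without α-KG 4 and α-KG 5, 9 of the 11 kept it, but not Samd9l (0.476) or Mx2 (0.295). Mx2 and Samd9l also had adjusted permutation p-values of 0.159 and 0.173 for r over all libraries. With the monocyte mean as a covariate the members' median was -0.05 with 15 above 0, and with the red cell mean as a covariate, a fit added after the data were seen, it was 0.30 with 32 above 0. Neither fit called a member, with 0 and 14 of the 37 at an unadjusted p under 0.05, beside 151 and 3208 of all 15126 genes. The monocyte mean separates the groups, and with it 0 of all genes passed. What part monocytes or red cells had in the members' levels was not tested.

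**Figure D4:**
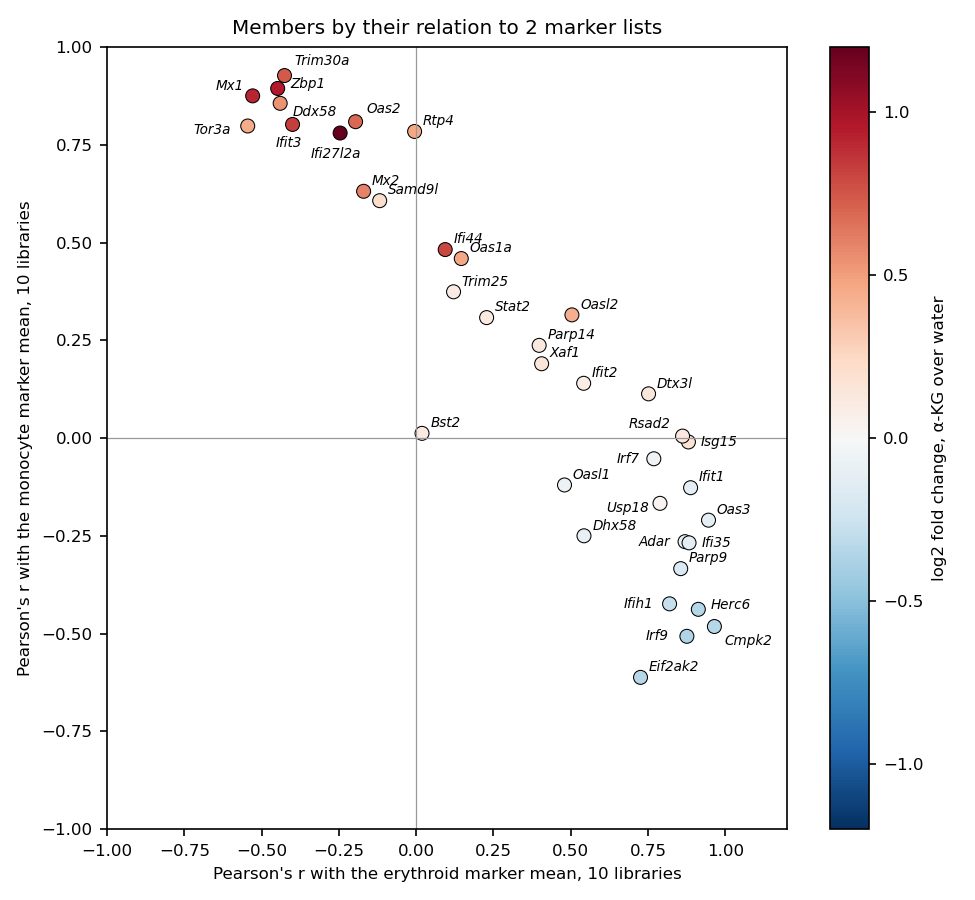
Each of the 37 members by its Pearson's r over the 10 libraries with the red cell marker mean (x axis) and with the monocyte marker mean (y axis), coloured by the log2 fold change of α-KG over water. The 11 members above 0.5 on the y axis are red and lie left of or near 0 on the x axis, and no member exceeds 0.5 on both axes.

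**Figure D5:**
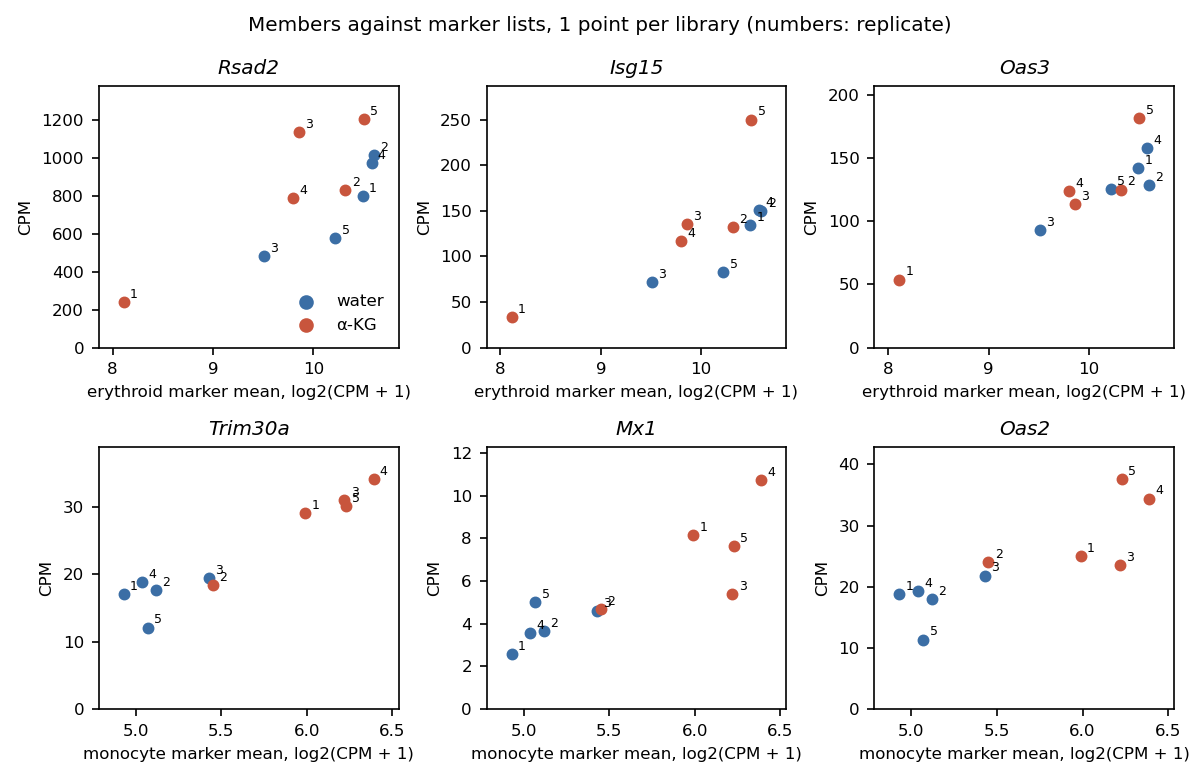
CPM of Rsad2, Isg15 and Oas3 against the red cell marker mean (top) and of Trim30a, Mx1 and Oas2 against the monocyte marker mean (bottom), both as log2(CPM + 1), with 1 numbered point per library. In the top row α-KG 1 stands alone at 8.11 with the lowest CPM, and in the bottom row α-KG 2 lies beside water 3.

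The pathway above these genes was covered by 5 lists. Of 20 type I and III interferon genes none had enough counts to be tested. Ifnb1 had 4 counts in all over 3 libraries, 9 genes were at 0 in every library, and the most abundant, Ifnk, had 52 counts in all. A count of 0 over all libraries allows up to 0.0154 CPM, taken as 3 counts and covering counting error only.

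Of the 10 receptor and JAK-STAT genes 2 rose and 0 fell, and both encode the receptor of the other interferon type, interferon γ. Ifngr1 rose by 0.68 ± 0.14 on the log2 scale, from 30.4 ± 4.40 to 49.0 ± 7.66 CPM (SD, n = 5, edgeR adjusted p = 0.0309). Ifngr2 rose by 0.54 ± 0.11, from 15.3 ± 0.557 to 22.2 ± 3.29 CPM (SD, n = 5, edgeR adjusted p = 0.0354). The type I receptor genes Ifnar1 and Ifnar2 had 0.02 ± 0.15 and -0.28 ± 0.21. The kinase genes Jak1 and Tyk2 had 0.05 ± 0.17 and 0.56 ± 0.15 (edgeR adjusted p = 0.0592 for Tyk2).

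Among genes that induce interferon, 0 of 15 tested passed the edgeR test in either direction, with 8 at an unadjusted p under 0.05, 7 of them higher. The 8 were 53.3% of those tested, beside 27.8% of all genes. The endosomal RNA receptor gene Tlr7 had 1.08 ± 0.28 without overlap between groups (edgeR adjusted p = 0.0566). Unc93b1, which carries such receptors to endosomes, had 0.56 ± 0.15 (edgeR adjusted p = 0.0603), and Irf3, the factor that first switches on Ifnb1, had 0.18 ± 0.10.

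Of 5 other IRF genes tested 1 rose, Irf5, a factor that acts downstream of Toll-like receptors in myeloid cells. Irf5 was at 14.98 ± 1.24 CPM in water and 31.6 ± 7.59 CPM in α-KG (SD, n = 5), did not overlap between the groups and rose by 1.08 ± 0.17 on the log2 scale (edgeR adjusted p = 0.0154). The myeloid and dendritic cell factor Irf8 had 0.45 ± 0.15 (edgeR adjusted p = 0.0926). Of 7 negative regulators 1 rose, the phosphatase gene Ptpn6, by 0.58 ± 0.13 (edgeR adjusted p = 0.0375). Samhd1, which depletes nucleotides, had 0.55 ± 0.14 (edgeR adjusted p = 0.0597), and the receptor inhibitor gene Socs1 had -0.04 ± 0.21.

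A list of 46 other interferon-inducible genes, which shares no gene with the 37, had 43 tested, of which 3 rose and 0 fell. Their median log2 fold change was 0.34, with 30 above 0, and 44.2% had an unadjusted p under 0.05, beside 27.0% of the members and 27.8% of all genes. Slfn5, of the schlafen family, rose by 1.37 ± 0.20 on the log2 scale, from 11.4 ± 1.81 to 29.8 ± 9.27 CPM (SD, n = 5, edgeR adjusted p = 0.0154). Trim30d rose by 0.89 ± 0.19 (edgeR adjusted p = 0.0334) and Epsti1 by 0.72 ± 0.17 (edgeR adjusted p = 0.0459). α-KG 5 was the highest library for 17 of these 43 genes and α-KG 4 for 13, while they were the highest for 9.63% and 11.8% of all genes tested.

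The calls of Irf5 and Slfn5 were kept under 17 of 22 other settings each and were lost without water 1, water 2, water 4 or α-KG 4. Those of Ifngr1, Ifngr2, Ptpn6, Trim30d and Epsti1 were kept under 8 to 11 settings, and among fits without 1 library only when water 3 or α-KG 2 was left out. With the monocyte mean as a covariate the log2 fold changes of these 7 genes ran from 0.07 for Ifngr1 to 0.29 for Ifngr2, and none was called. That fit called 0 of all genes. The monocyte mean was higher in every α-KG library than in any water library, so the fit can hardly tell it from the group. Their relation to the share of monocytes was not tested.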

How the data were processed

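RNA from bone marrow cells was depleted of ribosomal RNA by RNase H and sequenced on an Illumina NovaSeq, per the labels. The deposited table holds expected counts per gene on build GRCm38, and the authors' processing notes name bcl2fastq and DRAGEN. No source used here gives the annotation release, the counting method or whether strand was used. Of the values 10.3% were not whole and were rounded. All columns were matched to samples by title, and 0 columns were left over.

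Genes passing filterByExpr (minimum count 10, minimum total 15), 15126 in number, were tested with the quasi-likelihood test of edgeR 4.0.16 in R 4.3.3, with TMM scaling and Benjamini-Hochberg adjustment over all of them. The ± after a log2 fold change is its standard error. CPM values are scaled by TMM. On simulated data of 15126 genes for this comparison, 8.9% of 1.5-fold, 54.6% of 2-fold and 91.9% of 4-fold changes were recovered, and 5.18% of calls were false. The simulation drew each gene independently, without the composition differences that genes of a real library share. Its rates of recovery and of false calls may thus not hold for the real libraries. Alternatives used DESeq2 1.42.0, limma 3.58.1 and sva 3.50.0, other scalings and filters, marker means as covariates, and each library left out.

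The 37 members, the other lists and the rule for named genes were chosen with earlier results of these data known. Values in every library are given for each member past the threshold, the smallest p of each role, the extreme log2 fold changes and the 3 highest levels per length. From the other lists the rule takes genes past the threshold, the 2 of smallest unadjusted p in each list and Ifnb1, Ifnar1, Ifnar2, Jak1, Tyk2, Irf3 and Socs1. Some genes of the rule are not reported here. Gene positions are from GENCODE M21. Oas1g, Ifit3b and Cmpk2, Rsad2's neighbour, are named beside these for their position or sequence. Of the other marker lists, 1 of 10 T and NK cell genes rose, with all 10 above 0 and 6 at an unadjusted p under 0.05. Of 7 stromal genes tested 2 rose, and the list went both ways, from a log2 fold change of -1.64 for Col1a1 to 1.99. Of 7 classical dendritic, 8 B cell, 10 neutrophil and 8 megakaryocyte genes tested 0 passed the edgeR test, with 2, 0, 0 and 3 at an unadjusted p under 0.05. The share of all genes tested at an unadjusted p under 0.05 was 27.8%.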

Additional observations from a re-analysis of the deposited data

Results flagged for a closer look

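The 5 libraries of each group were examined for single values far from the rest in all 37 members, 74 groups in all, and 2 stood out. Chance alone gives about 1 in 20 such groups, so 2 of 74 is no more than chance gives. Ifih1, the sensor of long double-stranded RNA, reached 37.97 CPM in water 4, whereas the other water libraries lay between 30.96 and 32.74 CPM. Oas1a, an oligoadenylate synthetase gene, reached 10.97 CPM there, whereas the other 4 lay between 8.688 and 9.243 CPM. Water 4 was also the highest water library for 17 of the 37 members, and the share over all genes was not computed.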

How the results depend on the processing

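No paired analysis was possible because no label links a water library to an α-KG library. Trim30a was the 1 member that rose in the main fit, in which 361 of all genes rose and 52 fell. By scaling, the members that rose numbered 0 with RLE factors (272 of all 15126 genes rising, 56 falling), 4 with upper quartile factors (457 rising, 100 falling) and 0 with library totals alone, where 117 rose, 1042 fell and the members' median was -0.17. By filter they numbered 4 with none (428 of 32183 genes rising, 154 falling), 2 with a minimum count of 50 (384 of 10746 rising, 56 falling), and 2 with protein-coding genes alone (383 of 11903 rising, 90 falling). By test they numbered 7 with DESeq2 (969 of all genes rising, 688 falling), 0 with limma voom (225 rising) and 7 with voom quality weights (1401 rising, 989 falling). The fits with 0 had 8 to 10 members at an unadjusted p under 0.05, beside 3336 to 4414 of all 15126 genes. By covariate they numbered 0 each: 0 of all genes rose and 0 fell with the monocyte mean, 62 and 5 with 1 surrogate variable, and 166 and 22 with the red cell mean, which was added after the data were seen. The log2 fold change of Trim30a was -0.0632 with the monocyte mean. Leaving out 1 library gave 0 to 8 members rising, 0 to 1610 of all genes rising and 0 to 1073 falling. The cause of these shifts was not tested. No setting had a member falling. Depth limits Ifi44 most, with 5 to 28 counts, and at 8.9% recovery of simulated 1.5-fold changes most small changes would be missed.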
